A study of Mus musculus with 3 samples.

Results

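Busulfan, an alkylating drug used against leukemia and before transplantation, was given to young mice, and the small intestinal cells other than Paneth cells were compared with those of mice that received vehicle alone. The animals were male ICR mice, an outbred stock, 3 weeks old at the time of the busulfan injection. AOS 0 mice received water by gavage for 2 weeks. B + A 0 mice received 1 injection of busulfan at 40 mg/kg and the same water gavage. The gavage began on the day after the injection, and samples were collected after the 2 weeks of gavage. Another group, B + A 10, received busulfan at 40 mg/kg and alginate oligosaccharides (AOS) at 10 mg/kg, and its levels are given beside the others only as values. The cells of 6 mice per group made up 1 library, loaded on 1 lane of a 10x Genomics droplet system that counts captured RNA molecules by unique molecular identifiers (UMIs). There was thus no replicate, and no test was possible. The treatment cannot be told apart from differences between the 6 outbred mice of each pool, or between lanes.

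Cells were kept when their alpha-defensin (Defa) transcripts, the main products of Paneth cells, made up fewer than 1500 of 10000 UMIs. This left 7003 cells of the 12653 in the 3 libraries, 3997 of 4106 in AOS 0 and 3006 of 3195 in B + A 0. The 2 cells nearest to the limit from below held 1442 and 1461 defensin UMIs per 10000, and the nearest above it 1520 and 1555, in AOS 0 and B + A 0. The kept cells held 32704300 and 21473238 UMIs, with a median of 7294 and 6242 per cell. The cells left out held 7.24% of the UMIs of AOS 0 and 17.6% of those of B + A 0. The name holds only in part, because defensin transcripts were present in every kept cell, at a median of 22.3 UMIs per 10000 in AOS 0 and 51.0 in B + A 0. Both libraries shared 17 cell barcodes. One label of the B + A 0 sample names AOS 10, a further group of the study that received AOS without busulfan. The title, description and treatment label of this sample name B + A 0, which was used. The same label of the B + A 10 sample names B + A 0, and there too the title, description and treatment label were used. Whether libraries were exchanged was not tested.

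The intestinal epithelium is renewed from stem cells at the base of the crypts. Their daughters divide several times, and then become absorptive enterocytes or secretory goblet, enteroendocrine and tuft cells as they move up the villus. Dividing crypt cells are the classical intestinal target of alkylating drugs, which crosslink DNA. Most cells belonged to such classes. When the cells of AOS 0 and B + A 0 were clustered together and clusters were named by fixed markers, 1076 and 769 were crypt-like, 1661 and 1218 enterocyte-like, 744 and 696 goblet-like, 66 and 40 enteroendocrine-like, 118 and 82 T lymphocyte-like, and 11 and 11 tuft-like. The remaining 321 and 190 cells lay in 2 clusters without a name, led by Reg4 and Ccl9 in cluster 11 and by Gsdmc2 in cluster 12. Cluster 12 held 165 cells of AOS 0 and 45 of B + A 0. Cluster 11, with 156 cells of AOS 0 and 145 of B + A 0, scored highest for the Paneth marker set. Its cells were kept because they were under the defensin limit. The 2 clusters together held 65 and 152 defensin UMIs per 10000, against 24.2 and 53.9 in crypt-like and 144 and 166 in goblet-like cells. Of the B cell and myeloid markers, Cd79a, Ms4a1 and Jchain were at 0 in B + A 0, and C1qb was at 0 in both libraries. The summed level of the 9 of 12 B cell and myeloid markers in the table, which include the antigen presentation genes Cd74 and H2-Aa, was 1181 CPM (UMIs per 1000000) in AOS 0 and 729 in B + A 0. That of the 8 of 11 stromal and blood markers was 7.4 and 79.7, with Dcn at 0 in AOS 0 and Col1a1 and Sparc at 0 in B + A 0. A single cell of B + A 0 held most of this sum, with 662 UMIs of Hba-a1 and 778 of Hbb-b1.

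A gene's level is given as CPM, the UMIs of the gene per 1000000 UMIs of all kept cells of a library, and each ratio is the level in B + A 0 over that in AOS 0, with a 95% interval that covers counting error only. In all 8599 genes had at least 300 UMIs in both libraries together. Of these, 67 were at least 1.5-fold higher in B + A 0 (0.779%) and 66 at least 1.5-fold lower (0.768%). The whole counting interval lay past the 1.5-fold limit for 44 of the higher and 21 of the lower genes. The ratios lay close together, with a median of 0.945 and with 90% of genes between 0.776 and 1.18. Since 30.8% of all tested genes had a ratio above 1, a count of members below 1 has to be read against that share. The higher side held all 8 tested defensins, 4 heat shock genes of the fixed list, other Paneth cell products, Gstp1, Hist1h2ao and Ceacam2. The lower side held St6galnac1, 3 genes of cholesterol synthesis, and genes of antigen presentation and the interferon response. When the median ratio was set to 1, 89 genes were higher and 34 lower, so that 72.4% of called genes were higher in place of 50.4%. Of the genes named here, Hmgcs1, Msmo1, H2-T23, Gbp3, Cpt1a, Gip and Hist1h1b were then no longer 1.5-fold lower, and Rps6, Rps28, Rps29, Slc15a1, Cyp3a11 and Gstm3 became 1.5-fold higher. With the library sums, fewer cells of a type and less RNA of a gene per cell cannot be told apart, and ratios are therefore also given inside classes and with each cluster weighted by its share in AOS 0.

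**Figure D1:**
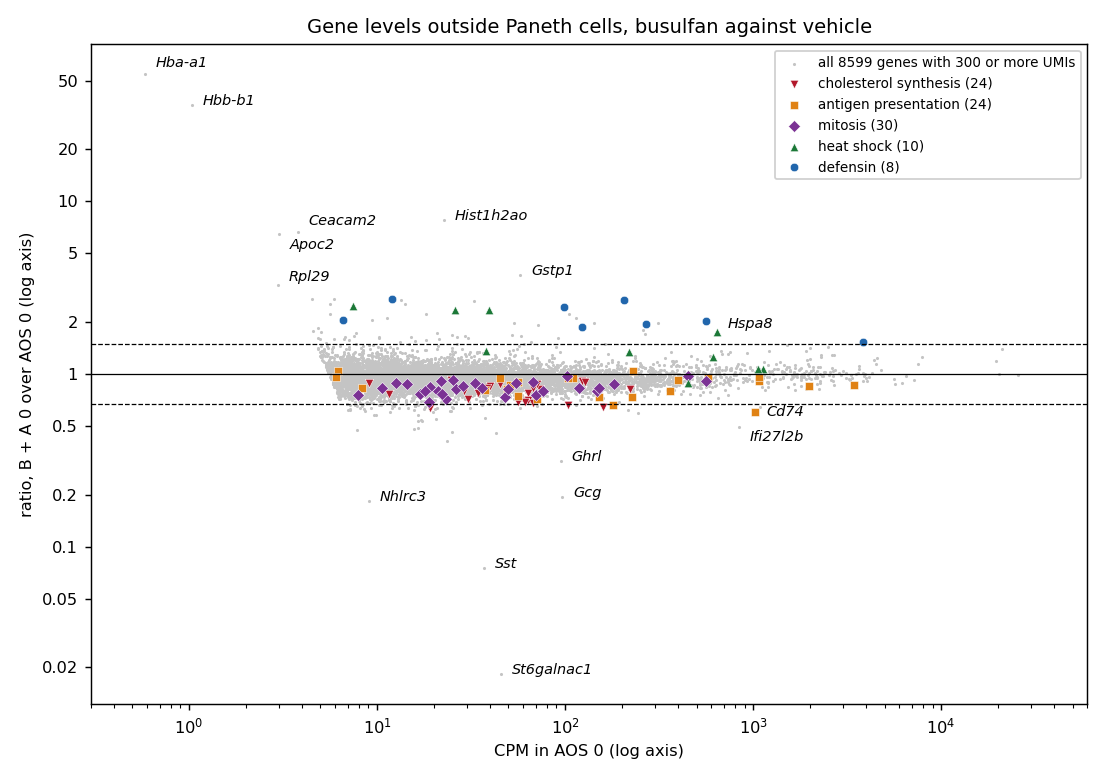
Each point is 1 of 8599 genes, with its level in AOS 0 in CPM (x, log axis) and its ratio of B + A 0 over AOS 0 (y, log axis). Dashed lines mark 1.5-fold, and colours mark members of 5 gene families with the number of genes in each. The defensins lie above the upper line, 4 heat shock genes lie above it at ratios from 1.75 to 2.48, and the cholesterol synthesis and mitosis genes lie below 1.

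Genes of the heat shock response included 4 that rose at least 1.5-fold in B + A 0. Heat shock proteins are chaperones that bind unfolded proteins, and their genes are switched on together by heat shock factor through paired GAA and TTC blocks near their start sites. The stretches of 150 bases before the start of 4 genes are shown as examples that were picked, once the ratios were known, for a ratio above 1 and a match to these blocks. They are from RefSeq on GRCm38.p6, 5′ to 3′, and capitals mark each match to GAANNTTC or TTCNNGAA, which read the same on both strands. Hspa1a is at chr17:34972157-34972306, minus strand, Hspa1b at chr17:34959239-34959388, minus strand, Hsph1 at chr5:149636337-149636486, minus strand, and Dnaja1 at chr4:40722318-40722467, plus strand.
Hspa1a: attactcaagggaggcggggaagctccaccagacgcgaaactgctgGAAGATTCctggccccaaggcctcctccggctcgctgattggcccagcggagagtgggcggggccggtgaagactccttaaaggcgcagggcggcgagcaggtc
Hspa1b: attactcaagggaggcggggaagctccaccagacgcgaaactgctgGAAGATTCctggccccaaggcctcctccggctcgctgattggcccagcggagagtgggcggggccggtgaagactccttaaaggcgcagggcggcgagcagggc
Hsph1: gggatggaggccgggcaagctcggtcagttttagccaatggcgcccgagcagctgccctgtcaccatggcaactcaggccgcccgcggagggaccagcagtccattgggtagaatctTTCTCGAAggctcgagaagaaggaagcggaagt
Dnaja1: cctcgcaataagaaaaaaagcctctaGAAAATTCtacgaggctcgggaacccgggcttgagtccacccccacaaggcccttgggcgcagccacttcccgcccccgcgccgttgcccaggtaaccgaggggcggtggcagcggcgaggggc
The match began at position -104 in both Hspa1a and Hspa1b, at -33 in Hsph1 and at -124 in Dnaja1, counted from the start. Hspa1a and Hspa1b are near-identical copies and their upstream stretches shared 247 of 250 bases, so reads of one can be counted for the other and the values of each are uncertain. Of 12 heat shock genes looked up, 9 had a promoter in the reference table and 6 of these held a match within 250 bases, against 12.9% of 27025 promoters of mouse genes. Matches did not follow the ratios gene by gene, since Hspe1 held 3 matches at a ratio of 1.07, and Chordc1 and Dnajb1 held 0 at ratios of 1.66 and 1.35. A match is a description of the letters and says nothing of binding in these cells.

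Hspa8, the constitutive Hsp70 chaperone, measured 644 CPM in AOS 0 and 1129 in B + A 0 (ratio 1.75, 95% interval 1.72 to 1.79), and 1239.7 in B + A 10. The inducible Hsp70 gene Hspa1a measured 7.43 and 18.4 (ratio 2.48, 2.1 to 2.92), and its copy Hspa1b 25.9 and 60.9 (ratio 2.35, 2.16 to 2.57). Hsph1, an exchange factor of Hsp70, measured 39.4 and 93 (ratio 2.36, 2.2 to 2.53). Inside the crypt-like, enterocyte-like and goblet-like classes the ratios of these 4 genes lay between 1.65 and 3.34. Hspa1a had fewer than 300 UMIs in each of the 3 classes and Hspa1b and Hsph1 in goblet-like cells, so that these ratios are values only. For Hsph1 the ratio was 2.26 (2.06 to 2.49) in crypt-like, 2.61 (2.23 to 3.05) in enterocyte-like and 3.03 (2.29 to 4.03) in goblet-like cells. Hsp40 partners on the list stayed below 1.5-fold, with Dnaja1 at 219 and 294 CPM (ratio 1.34, 1.3 to 1.39) and Dnajb1 at 38 and 51.4 (ratio 1.35). Of the 24 members of the immediate early and heat shock list that were tested, 4 were at least 1.5-fold higher and 0 lower, with 15 ratios above 1 and a median of 1.09. Cell dissociation is known to switch on immediate early genes and heat shock genes alike. Of the immediate early members, Dusp1 had a ratio of 1.39 (1.11 to 1.74) and levels of 5.23 and 7.26, below 1.5-fold. Egr1 had a ratio of 1.35, Jun of 1.19 and Fos of 0.956. The part of cell dissociation in these ratios was not tested. Cirbp, an RNA-binding protein known for its induction by mild cold, went the other way, from 20.6 to 11.3 (ratio 0.547, 0.47 to 0.634). In B + A 10, Hsph1 measured 115, Hspa1b 80.2 and Cirbp 10.4, on the same side of AOS 0 as in B + A 0.

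Genes of cholesterol synthesis had ratios below 1 throughout the list. They are controlled by the transcription factor SREBP2, which is released from the endoplasmic reticulum when sterols are scarce and binds sterol elements upstream of its targets. All 24 tested members had ratios below 1, with a median of 0.791, against 0.945 over all genes, and 3 of them were at least 1.5-fold lower. The median stayed below 1 in all 18 ways of processing that were run. Among the 3 were Hmgcs1, which makes the precursor of mevalonate, and Msmo1, a sterol methyl oxidase. Hmgcs1 measured 159 CPM in AOS 0 and 102 in B + A 0 (ratio 0.644, 0.612 to 0.677), and 94.5 in B + A 10. Its 150 bases before the start, on GRCm38.p6 at chr13:119690201-119690350, plus strand, are shown with the match to TCACNCCA or its complement TGGNGTGA, a core of the sterol element, in capitals, because this was the lowest member with a promoter in the reference table.
Hmgcs1: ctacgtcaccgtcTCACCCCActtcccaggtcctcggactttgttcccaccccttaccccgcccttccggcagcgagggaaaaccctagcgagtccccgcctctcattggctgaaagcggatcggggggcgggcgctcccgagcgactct
Such a match was present in 3 of the 16 cholesterol genes with a promoter in the table, Hmgcs1, Msmo1 and Srebf2, and in 3.58% of all promoters. Msmo1 measured 104 and 69.1 CPM (ratio 0.664, 0.624 to 0.706). Insig1, which holds the SREBP complex in the endoplasmic reticulum and is itself a target, had a ratio of 0.684 (0.634 to 0.737), and Fdft1, squalene synthase, 0.687 (0.635 to 0.744). The list was on the same side of 1 in each class, with a median of 0.736 over 22 genes in crypt-like, 0.816 over 21 in enterocyte-like and 0.709 over 16 in goblet-like cells. In these 3 classes 1.33%, 1.06% and 1.03% of all tested genes were at least 1.5-fold higher and 0.97%, 0.811% and 0.782% at least 1.5-fold lower. Genes were tested inside a class at 300 or more UMIs there, and class ratios of genes with fewer are values only. Relative to genes of like transcript length the median was 0.843.

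**Figure D2:**
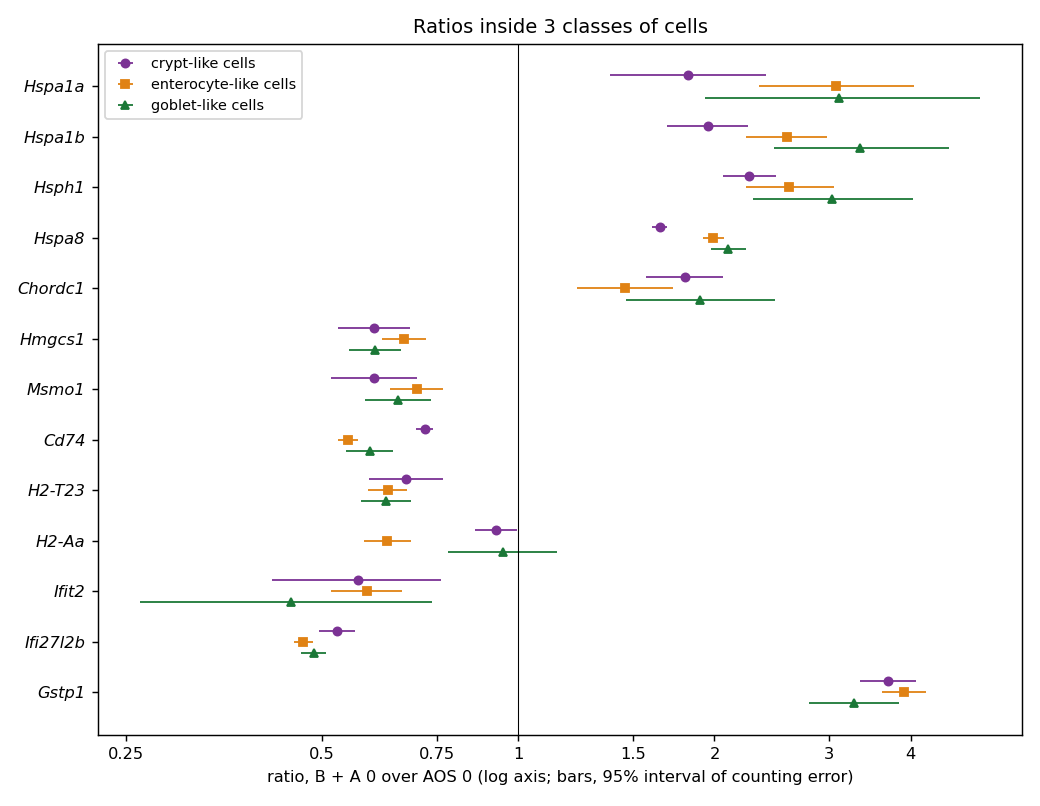
Ratios of B + A 0 over AOS 0 (x, log axis) for 13 genes inside crypt-like, enterocyte-like and goblet-like cells, with 95% intervals of counting error as bars. The heat shock genes and Gstp1 lie above 1 and Hmgcs1, Msmo1, Cd74, H2-T23, Ifit2 and Ifi27l2b below 1 in each class, while H2-Aa was at 0.63 in enterocyte-like and 0.924 in crypt-like cells.

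Antigen presentation genes mostly had ratios below 1, among them Cd74 and the chains of MHC class II. Gut epithelial cells carry class II molecules, which present peptides to CD4 T cells and depend on interferon gamma, as well as class I molecules. Of 24 tested members 22 had ratios below 1, with a median of 0.867, and 2, Cd74 and H2-T23, were at least 1.5-fold lower. Cd74, the chain that escorts class II molecules, measured 1024 CPM in AOS 0 and 616 in B + A 0 (ratio 0.601, 0.589 to 0.614), and 753 in B + A 10. The class II chains H2-Aa, at 152 and 111, and H2-Ab1, at 228 and 168, had ratios of 0.735 (0.7 to 0.772) and 0.739 (0.71 to 0.769), and H2-DMa, which loads peptides, 0.719 (0.669 to 0.773). H2-T23, a class I molecule that restrains killer cells, measured 179 and 118 (ratio 0.661, 0.63 to 0.692). The lower levels were seen inside enterocyte-like cells, where Cd74 had a ratio of 0.548 (0.529 to 0.567), H2-Aa 0.63 (0.579 to 0.684) and H2-Ab1 0.647 (0.605 to 0.692). In crypt-like cells the same 3 genes had ratios of 0.718, 0.924 and 0.887. Cd74 and H2-Aa also mark B cells and myeloid cells. In enterocyte-like cells the 9 markers of these cells summed to 1198 and 670.4 CPM (ratio 0.559). Of these, 5 were detected in AOS 0 and 3 in B + A 0, with Ms4a1, Lyz2, C1qa and C1qb at 0 in both libraries and Cd79a and Jchain at 0 in B + A 0 alone. The part of such cells in the class II ratios was not tested. Further class I genes were among the lowest of all, H2-T22 (23.6 and 9.59, ratio 0.407, 0.347 to 0.475) and H2-Bl (42.9 and 19.5, ratio 0.454, 0.406 to 0.506). They lie at chr17:36037128-36042747 and chr17:36080115-36084223, in the same part of the MHC, and they are near-identical to other class I genes that vary between mice, so that their values are uncertain. In B + A 10 H2-T22 measured 4.29 and H2-Bl 9.78.

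Interferon stimulated genes went in both directions. Of 28 tested members 6 had ratios above 1, where 30.8% of all genes did, and the median was 0.865, with 3 at least 1.5-fold lower and 2 higher. Ifi27l2b, an interferon-induced membrane protein, measured 842 CPM in AOS 0 and 418 in B + A 0 (ratio 0.497, 0.485 to 0.509), but 1952 in B + A 10, above both. Ifit2, which binds foreign RNA, measured 37.7 and 21 (ratio 0.556, 0.498 to 0.62), and 23.6 in B + A 10. Its neighbour Ifit3 stayed just inside the limit at 0.67 (0.612 to 0.732), and Gbp3, a guanylate binding protein, was just past it at 0.664 (0.525 to 0.835) on 250 and 109 UMIs. Both oligoadenylate synthetases Oas1a and Oas1g were on the other side, Oas1a with 52.2 and 87.7 (ratio 1.68, 1.57 to 1.8) and Oas1g with 25 and 42.4 (ratio 1.69, 1.54 to 1.86), and their ratios in crypt-like, enterocyte-like and goblet-like cells lay between 1.6 and 1.79. Oas1a and Oas1g belong to a cluster of similar genes and share reads. Ubd, a ubiquitin-like protein induced by interferon gamma, measured 25.1 and 11.6 (ratio 0.461, 0.399 to 0.532), and 26.2 in B + A 10, and 1 cell held 4.01% of its UMIs. The list of gasdermins and inflammasome genes, which drive lytic cell death, had a median of 0.865 with 5 of 17 ratios above 1, a share near that of all genes, and no member past 1.5-fold. Casp1, the inflammasome protease, measured 159 and 116 (ratio 0.73, 0.695 to 0.765).

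**Figure D3:**
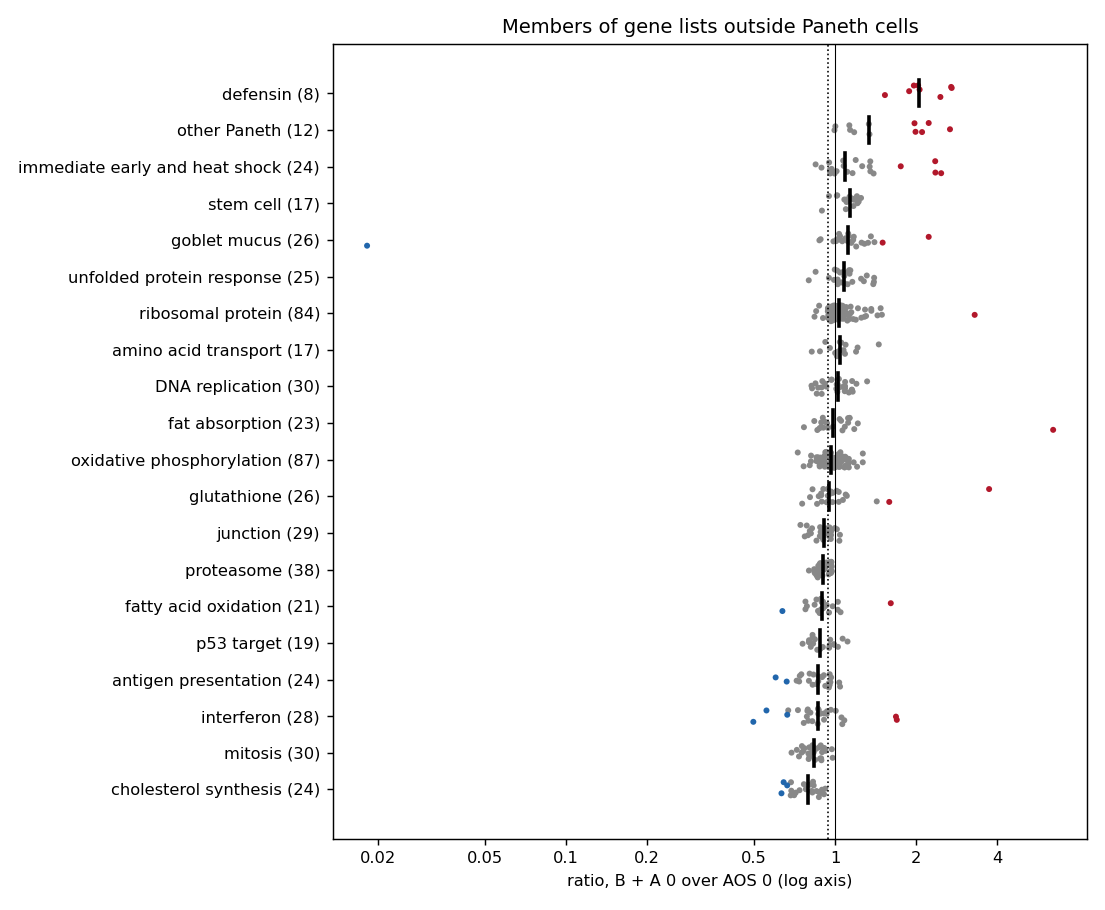
Ratios of B + A 0 over AOS 0 (x, log axis) of the tested members of 20 gene lists, with the number of members in parentheses and the median as a bar. Red and blue points are at least 1.5-fold higher or lower, and the dotted line is the median of all genes, 0.945. All cholesterol synthesis, mitosis and proteasome genes lie below 1 and all defensins above 1.5.

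Genes of mitosis had ratios below 1 and most genes of stem cells had ratios above 1, all of them by less than 1.5-fold over all kept cells. All 30 mitosis genes had ratios below 1, with a median of 0.832, and none was past 1.5-fold. Hmmr, a spindle protein, measured 18.9 and 13 CPM (ratio 0.689, 0.596 to 0.795), Ccnb1, the mitotic cyclin, 47.6 and 35 (ratio 0.734, 0.672 to 0.801), and Cdc20, which activates the exit from mitosis, 69.7 and 52.3 (ratio 0.751, 0.699 to 0.807). In B + A 10 the 3 genes measured 11.6, 31.8 and 43.5. Inside crypt-like cells the median of 29 mitosis genes was 0.809 and 0 were above 1, with 1 at least 1.5-fold lower. Cluster 3, which is led by Cdc20 and Ube2c, was the largest crypt-like cluster of AOS 0 (305 cells, against 139 of B + A 0), and cluster 9, led by the S phase genes Hells and Rrm2, the largest of B + A 0 (248 cells, against 300 of AOS 0). With each cluster weighted as in AOS 0 the median was 0.865. The 30 genes of DNA replication had a median of 1.02 with 18 above 1 and none past 1.5-fold, and their median was below 1 in 5 of 18 ways of processing. Cdc6, which licenses replication origins, measured 5.14 and 6.75 (ratio 1.31, 1.05 to 1.65), and Prim1, the primase, 16.1 and 13.2 (ratio 0.821, 0.708 to 0.95).

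Of 17 tested stem cell genes 15 had ratios above 1, with a median of 1.13 that stayed above 1 in all 18 ways of processing, and with none past 1.5-fold. Lgr5, the receptor that marks crypt base stem cells, measured 7.61 and 9.31 CPM (ratio 1.22, 1.01 to 1.48), Cdca7, a Myc and E2F target, 43 and 53.6 (ratio 1.248, 1.15 to 1.35), and Smoc2, a matrix protein of the crypt base, 41.8 and 48.9 (ratio 1.17, 1.08 to 1.27). In crypt-like cells 15 of 15 were above 1 with a median of 1.18, in crypt-like cells whose largest cluster was 3 in AOS 0 and 9 in B + A 0. With each cluster weighted as in AOS 0 the median over all kept cells was 1.07. The p53 list holds genes that p53 switches on after DNA damage. Of 19 tested, 16 had ratios below 1, with a median of 0.881 and 0 past 1.5-fold in either direction. Relative to genes of like transcript length the median of the p53 list was 0.951, with 6 above 1. Cdkn1a, the cell cycle inhibitor p21, measured 179 in AOS 0, 143 in B + A 0, with 156 in B + A 10 (ratio 0.799, 0.764 to 0.834), and Ccng1 31.5, 26 and 22.8 (ratio 0.824, 0.742 to 0.915). Only 10 of the 30 genes on the crosslink repair list had 300 UMIs, and their ratios had a median of 0.941, with Fancl at 0.741 (0.601 to 0.909) and Ercc1, part of the nuclease that unhooks crosslinks, at 1.33 (1.06 to 1.68).

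Mucus genes of goblet cells had a median ratio of 1.12, with 22 of 26 above 1, 2 at least 1.5-fold higher and 1 lower. The direction depended on the cells taken. With the clusters weighted as in AOS 0 the median was 0.923, and inside goblet-like cells it was 0.93 over 25 genes. Tff3, a trefoil peptide of mucus, measured 20973 and 29346 CPM over all cells (ratio 1.4, 1.39 to 1.4), and had a ratio of 1.16 in goblet-like, 2.1 in crypt-like and 2.12 in enterocyte-like cells. Muc2, the gel-forming mucin, had ratios of 1.15 over all cells and 0.922 in goblet-like cells. Retnlb, an antibacterial protein of goblet cells, measured 1912 and 2596 over all cells (ratio 1.36, 1.34 to 1.37), with a ratio of 1.07 in goblet-like cells. Fut2, a fucosyltransferase of mucus and glycocalyx, measured 14.8 and 22.2 (ratio 1.5, 1.32 to 1.71), and 1.3 in goblet-like cells, and most other ways of processing put it below 1.5-fold. Genes of the unfolded protein response, which secretory cells use to match folding capacity to load, had a median of 1.08 with 20 of 25 above 1 and none past 1.5-fold. Syvn1, a ligase that clears misfolded proteins, measured 20.9 and 29.1 (ratio 1.4, 1.2502 to 1.56), Dnajb9 28.3 and 39.5 (ratio 1.39, 1.27 to 1.53) and Hyou1 18.3 and 25.3 (ratio 1.39, 1.23 to 1.56), with 41.7 in B + A 10.

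Several products of Paneth cells were higher in the cells that were kept. Because cells were left out by their defensin content, the defensins are a description only. All 8 tested defensins were at least 1.5-fold higher, with a median of 2.05. Of 12 other Paneth cell genes 5 were at least 1.5-fold higher, with a median of 1.34 that was 1.19 with the clusters weighted as in AOS 0. By class, 7 of 10 were higher in crypt-like cells (median 2.33), 7 of 10 in enterocyte-like (median 2.4) and 3 of 12 in goblet-like cells (median 1.02). Lyz1, the Paneth lysozyme, measured 311 CPM in AOS 0, 619 in B + A 0, with 319.8 in B + A 10 (ratio 1.99, 1.94 to 2.04), and Ang4, a ribonuclease that kills microbes, 105, 234 and 110.2 (ratio 2.23, 2.13 to 2.33). AY761184, a defensin-like peptide, had a ratio of 2.1, Clps, a colipase, 1.97 and Gm14851, another defensin-like gene, 2.67. AY761184 and Gm14851 are among the 5 higher genes, and being defensin-like they too are a description only. Lyz1 had ratios of 2.45 in crypt-like, 2.96 in enterocyte-like and 1.52 in goblet-like cells, and Ang4 of 2.27, 2.4 and 2.38. In the cells left out, Lyz1 instead had a ratio of 0.767 and Ang4 of 0.839, while in the whole libraries the ratios were 1.85 and 2.03. Mptx2, a pentraxin of Paneth cells, had a ratio of 1.03 in crypt-like cells and 0.6 in the cells left out.

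Markers of one cell type were also summed inside the classes of others. The Paneth marker set holds defensins, which the choice of cells used, so its sums are a description only. In crypt-like cells the summed level of 15 Paneth markers was 2776 CPM in AOS 0 and 6134 in B + A 0 (ratio 2.21), and that of 18 goblet markers 2754 and 5974 (ratio 2.17). In enterocyte-like cells the ratios of these sums were 2.28 and 1.89, and in goblet-like cells the Paneth sum had a ratio of 1.11. Enterocyte markers had ratios of 1.246 in crypt-like and 1.05 in goblet-like cells, crypt markers 1.1 in enterocyte-like and 1.03 in goblet-like cells, and B cell and myeloid markers 0.744 in crypt-like cells. Inside their own class goblet markers had a ratio of 1.04, enterocyte markers 0.99 and crypt markers 1.03. In droplet data free RNA gives UMIs to cells that do not make a gene. Its part in the ratios over all cells was not tested.

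T lymphocyte genes were also measured inside and outside their own class. Ccl5, a chemokine of cytotoxic T cells, measured 261 CPM in AOS 0 and 467 in B + A 0 (ratio 1.79, 1.74 to 1.85), and 702 in B + A 10. Cd3e, a chain of the T cell receptor complex, measured 13.3 and 20.4 (ratio 1.53, 1.34 to 1.76). With each cell thinned to 1000 UMIs both were below 1.5-fold and the ratio of Cd3e was 0.931. In T lymphocyte-like cells themselves, 118 and 82 in number, the ratio was 0.837 for Ccl5 and 0.736 for Cd3e, and the sum of 15 markers was 28957 and 20505 CPM (ratio 0.708). In crypt-like, enterocyte-like and goblet-like cells the ratios of the same sum were 3.72, 3.21 and 4.53. Over all kept cells 2 of 16 tested genes of the T lymphocyte list were at least 1.5-fold higher, with a median of 1.11 that was below 1 in 2 of 18 ways of processing. Gzma, a granzyme, had a ratio of 1.13 over all cells and 0.692 in T lymphocyte-like cells.

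**Figure D4:**
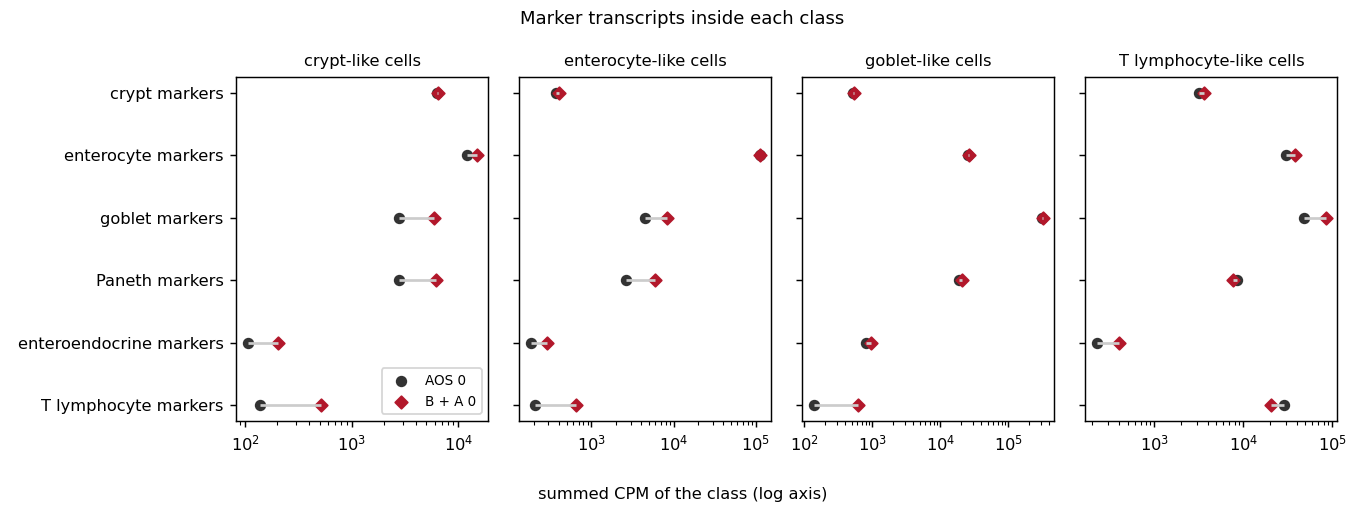
Summed levels of 6 sets of marker genes, in CPM of the class (x, log axis), inside crypt-like, enterocyte-like, goblet-like and T lymphocyte-like cells of AOS 0 (grey circles) and B + A 0 (red diamonds). T lymphocyte markers are higher in B + A 0 in the 3 epithelial classes, at ratios of 3.72, 3.21 and 4.53, and lower in T lymphocyte-like cells, at 0.708.

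Gut hormone genes differed widely, but on few cells. Somatostatin (Sst) measured 37.1 CPM in AOS 0 and 2.79 in B + A 0 (ratio 0.0753), and of its 1213 UMIs in AOS 0 1 cell held 72.1%. Only 2 cells of AOS 0 and 0 of B + A 0 held 50 or more Sst UMIs. Proglucagon (Gcg) measured 96.9 and 18.7 (ratio 0.193), with 9 and 2 such cells, and ghrelin (Ghrl) 94.8 and 29.7 (ratio 0.313), with 11 and 6. Gip, the incretin of K cells, measured 1082 and 693 (ratio 0.641), with 15 and 8 such cells, while neurotensin (Nts) was on the other side, at 143 and 281 (ratio 1.97), with 5 and 6. All these hormone ratios rest on the 66 and 40 enteroendocrine-like cells and on the few cells counted here. Without the cell that held most UMIs of the gene, Nts and Gip were below 1.5-fold. Of 12 tested genes of the list 5 were at least 1.5-fold lower and 1 higher, with a median of 0.797, and Cpe, which trims prohormones, was at 9.66 and 5.59 (ratio 0.578, 0.465 to 0.716). The 5 tested tuft cell genes, Ptpn6, Ltc4s, Tuba1a, Kctd12 and Cd24a, had a median of 1.12 over all kept cells, with none past 1.5-fold. Only 11 and 11 cells were tuft-like, and ratios inside them are not given.

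The absorptive programme of enterocytes was close to that of AOS 0. The median ratio was 0.982 for 23 genes of fat absorption, 0.98 for 18 disaccharidases and peptidases, 1.06 for 16 sugar transport and fructose genes, 1.04 for 17 amino acid transporters, 0.926 for 6 ileal bile acid genes, 0.993 for 10 retinol genes and 0.988 for 20 microvillus genes. Each of these 7 medians lay on the other side of 1 in at least 1 of the 18 ways of processing. Of these 7 lists a single gene was past 1.5-fold, Apoc2, the cofactor of lipoprotein lipase, which measured 3 CPM in AOS 0, 19.3 in B + A 0, with 12.4 in B + A 10 (ratio 6.45, 5.16 to 8.12). Its ratio was 7.11 (5.48 to 9.32) in enterocyte-like cells. Slc15a1, the peptide transporter PepT1, measured 56.5, 82.1 and 158 (ratio 1.45, 1.36 to 1.55), and lactase (Lct) 85.6, 111 and 145 (ratio 1.3, 1.23 to 1.37), while sucrase-isomaltase (Sis) measured 262, 208 and 211 (ratio 0.795, 0.766 to 0.824). Of 21 genes of fatty acid oxidation 4 had ratios above 1, where 30.8% of all genes did, and the median was 0.892. Relative to genes of like transcript length the median was 0.95, with 6 above 1. Cpt1a, which admits fatty acids to mitochondria, measured 57.5 and 36.6 (ratio 0.637, 0.585 to 0.693) and 34.3 in B + A 10, and it was lower in crypt-like (0.555) and in enterocyte-like cells (0.711). Acaa1b, a peroxisomal thiolase, was higher, at 10.3 and 16.5 (ratio 1.61, 1.38 to 1.87). Among 10 genes of iron and calcium uptake, with a median of 0.957, S100g, the calcium carrier of duodenal enterocytes, measured 266 and 456 (ratio 1.72, 1.67 to 1.77). Weighted by the clusters of AOS 0 the ratio of S100g was 1.21, under 1.5-fold, and cluster 14, which it leads, held 71 cells of AOS 0 and 82 of B + A 0. The 11 metallothioneins and zinc transporters had a median of 0.963 and the 21 genes of ion and fluid transport 0.991, with none past 1.5-fold, and the 5 Reg lectins 0.994, Reg3b at 0.994 and Reg3g at 1.

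Busulfan is removed by conjugation to glutathione, a step that glutathione S-transferases of the alpha class carry out in liver and gut. Of 26 tested glutathione genes 2 were at least 1.5-fold higher, both of the pi class, and the median was 0.953. Gstp1, at chr19:4035407-4037985, measured 57.7 CPM in AOS 0, 215 in B + A 0, with 218 in B + A 10 (ratio 3.73, 3.53 to 3.94), and its ratio was 3.69 in crypt-like, 3.91 in enterocyte-like and 3.27 in goblet-like cells. Its near-identical neighbour Gstp2 measured 21.4, 34 and 41.2 (ratio 1.59, 1.43 to 1.76), and how reads were divided between both copies can move either value. Gsta1, of the alpha class, measured 16.4 and 16.9 (ratio 1.03, 0.9 to 1.18). Gstm3, of the mu class, measured 89.5 and 128 (ratio 1.43, 1.35 to 1.5), and Mgst1, a microsomal enzyme, 735 and 554 (ratio 0.754, 0.738 to 0.771). The 23 tested cytochromes P450 and other drug-handling genes had a median of 0.922 and none past 1.5-fold, with Cyp3a11 at 21.2 and 30.7 (ratio 1.45, 1.3 to 1.62). Redox enzymes had a median of 0.939 over 19 genes with none past 1.5-fold, and Sod1, the cytosolic superoxide dismutase, measured 168 and 220.3 (ratio 1.31, 1.26 to 1.36).

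Among the genes of general cell machinery, all 38 proteasome genes had ratios below 1, with a median of 0.903, and none was past 1.5-fold. Relative to genes of like transcript length, 15 of them were above 1. Junction genes had a median of 0.906 with 26 of 29 below 1, and relative to genes of like transcript length a median of 0.964 with 10 above 1. Cldn4, a claudin, measured 20.2 and 15 (ratio 0.743, 0.649 to 0.85). Keratins had a median of 0.869 over 6 genes, the transcription factors of gut identity 0.941 over 28, with Cdx2 at 0.788 (0.747 to 0.83) and Hnf4g at 0.789 (0.756 to 0.823), the 87 nuclear genes of oxidative phosphorylation 0.968 and the 166 solute carriers 0.976. The 84 ribosomal protein genes had a median of 1.04 with 54 above 1. Apart from Rpl29 and Rps6, the largest ratios were those of Rps28 with 1517 and 2239 CPM (ratio 1.48, 1.46 to 1.49) and Rps29 with 2493 and 3581 (ratio 1.44, 1.42 to 1.45), and in B + A 10 they measured 3053 and 4710.4. Over all genes, those with transcripts under 600 bases had a median ratio of 0.99 with 20 of 354 at least 1.5-fold higher, and those of 1000 to 1500 bases 0.927 with 5 of 1280. The 20 include defensins, by which the cells were chosen. All 8 tested defensins were at least 1.5-fold higher, and their median transcript length was 398 bases. The part of transcript length in these ratios was not tested. Rpl29 (2.97 and 9.78, ratio 3.3, 2.58 to 4.24) and Rps6 (163 and 244, ratio 1.49, 1.44 to 1.55) have many processed copies in the genome, and their values are uncertain.

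The 15 highest and 15 lowest ratios leave out defensins and genes with over 10% of their UMIs in 1 cell. They include members of families given above, such as Hspa1a, Hsph1, H2-T22 and Ifit2. The most extreme ratios on each side were those of single genes. St6galnac1, a sialyltransferase that caps mucin sugars, lies at chr11:116765025-116775507 and gave 1500 UMIs in AOS 0, 18 in B + A 0, with 3 in B + A 10, or 45.9, 0.838 and 0.145 CPM (ratio 0.0183, 0.0108 to 0.029). It was near 0 in both busulfan libraries and in each class, with ratios of 0.00478 in crypt-like, 0.0222 in enterocyte-like and 0.0226 in goblet-like cells. Nhlrc3, at chr3:53448583-53463332, gave 297 UMIs in AOS 0 and 36 in B + A 0 (ratio 0.185, 0.127 to 0.261), with 9.08, 1.68 and 6.84 CPM in AOS 0, B + A 0 and then B + A 10. Hist1h2ao, a histone H2A gene at chr13:21810465-21810944, measured 22.7, 177 and 127 (ratio 7.83, 7.24 to 8.49), and was higher in crypt-like cells by a ratio of 7.74 (7.06 to 8.51). It is one of many near-identical H2A genes. Of 12 tested histone genes the median was 0.868, and Hist1h1b, a linker histone, was at 15.9 and 10.3 (ratio 0.649, 0.552 to 0.761), so that histones did not move together. Ceacam2, a cell adhesion molecule at chr7:25516042-25539857, measured 3.79, 25.1 and 10.3 (ratio 6.62, 5.44 to 8.11), with 5.41 in crypt-like, 6.51 in enterocyte-like and 6.19 in goblet-like cells.

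**Figure D5:**
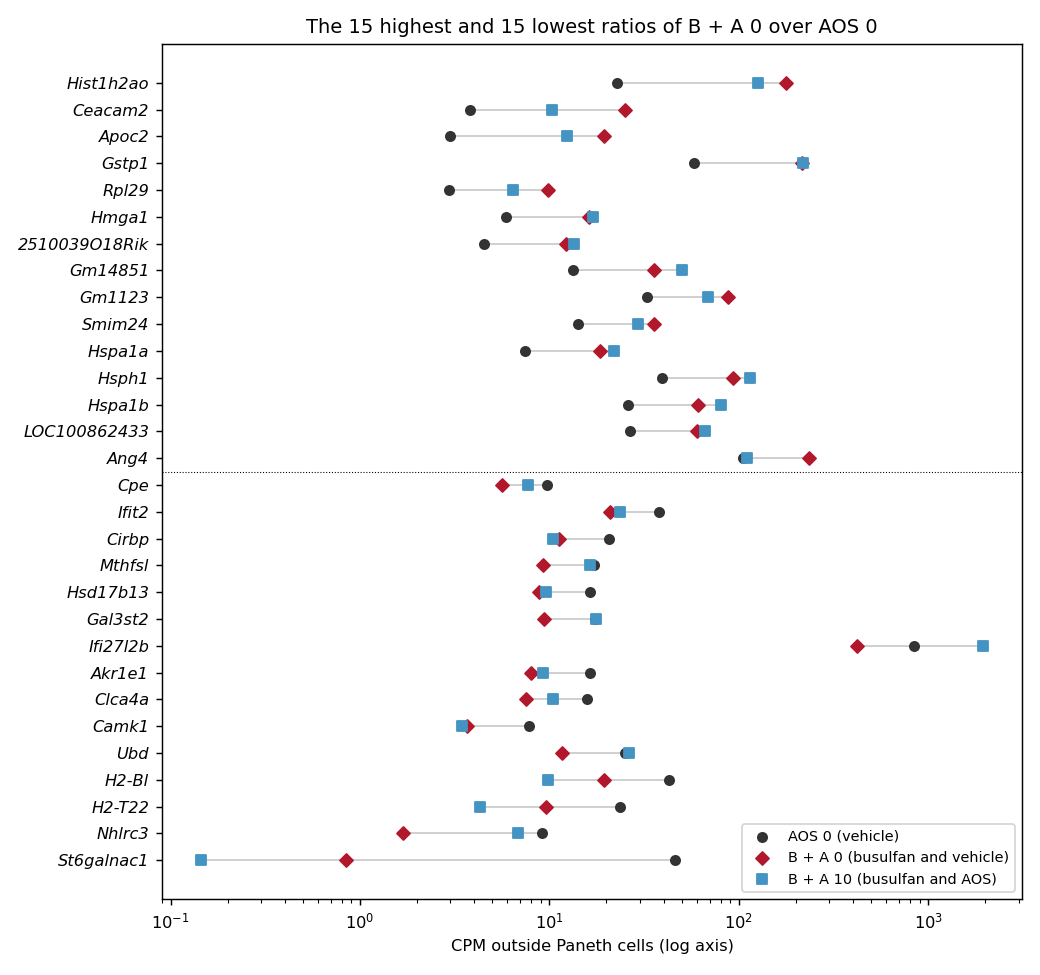
Levels of the 15 genes with the highest and the 15 with the lowest ratio of B + A 0 over AOS 0, in CPM outside Paneth cells (x, log axis), in AOS 0 (black circles), B + A 0 (red diamonds) and B + A 10 (blue squares). B + A 10 lies near B + A 0 for Gstp1, Hmga1, Hspa1a and Camk1, near AOS 0 for Ang4, Ubd and Gal3st2, and above both for Ifi27l2b.

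The other genes with the highest ratios were Hmga1, a chromatin protein, at 5.9 and 16.1 CPM (ratio 2.73, 2.28 to 3.27), Smim24, a small membrane protein, at 14.1 and 35.8 (ratio 2.54, 2.26 to 2.86), and 3 genes known by provisional names, 2510039O18Rik (2.71), Gm1123 (2.66) and LOC100862433 (2.25). Hmga1 has near-identical copies, and its value is uncertain. On the lower side, Camk1, a calmodulin-dependent kinase, measured 7.8 and 3.68 (ratio 0.472, 0.362 to 0.61) and had a ratio of 0.184 in enterocyte-like and 0.519 in crypt-like cells. Akr1e1, an aldo-keto reductase, measured 16.4 and 7.96 (ratio 0.484, 0.405 to 0.576), Hsd17b13, a lipid droplet enzyme, 16.4 and 8.8 (ratio 0.536, 0.452 to 0.634), and Clca4a, a regulator of chloride channels, 15.7 and 7.54 (ratio 0.48, 0.4 to 0.574). Clca4a had a ratio of 0.43 in enterocyte-like and 1.4 in crypt-like cells, and reached 1.07 when fine clusters were weighted as in AOS 0. Gal3st2, a sulfotransferase of mucin sugars, measured 17.4, 9.31 and 17.7 in AOS 0, B + A 0 and then B + A 10 (ratio 0.534, 0.453 to 0.629), and Mthfsl, a gene of folate metabolism, 17.2, 9.27 and 16.3 (ratio 0.539, 0.456 to 0.635). For both, B + A 10 was close to AOS 0.

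Of the called genes, 7 rested on 1 cell for over 10% of their UMIs. They were the hormones Sst, Gcg, Ghrl and Nts, the galectin Lgals1 (5.6 and 14.2, ratio 2.53), and the hemoglobin chains Hba-a1 and Hbb-b1, of which 1 cell held 94.3% and 92.7%. The lower and higher ratio of the hemoglobin chains were 36.1 and 54.7. Without that cell Hba-a1 had a ratio of 1.68 and Hbb-b1 of 1.21.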

How the data were processed

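The mice fell into 3 groups, and droplet single-cell RNA sequencing of the small intestine gave 1 library for each. According to the methods and labels the authors aligned reads with Cell Ranger 2.2.0 to mm10 with a forced number of cells, removed cells with fewer than 200 genes and genes in fewer than 3 cells, and normalized in Seurat. Deposited values are on a natural log scale, ln(1 + x), where x is UMIs scaled to 10000 for every cell. Dividing by the smallest value of each cell gave whole UMIs for 100% of 24333763 values (within 0.01 UMI). Counts were summed over the kept cells of each library and scaled to 1000000, since cells are not replicates. No test was possible. Ratios carry exact binomial (Clopper-Pearson) 95% intervals that cover counting error only, and the 1.5-fold limit was applied to genes with at least 300 UMIs in both libraries together. The scripts were tested on simulated data.

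Clusters were made from AOS 0 and B + A 0 together without joining (2000 variable genes without Defa genes, 30 components, 20 neighbours, Leiden resolution 1) and named by fixed markers, which rebuilds the classes rather than taking the authors'. A cluster stayed unnamed where markers of another class led it, where fewer than 3 markers of its best class were detected, or where that class was Paneth. Doublets were kept and no caller was run; an alternative left out the cells with the 5% highest UMIs. The members, gene lists and markers were chosen with earlier results of these data known. Named genes are the 15 highest and 15 lowest ratios without Defa genes and without genes of which 1 cell held over 10%, up to 6 members of each list with the largest change, and the markers; a few further list members and the genes of the closing section were chosen after their values were seen. Some members of the cholesterol synthesis list are counted but not reported here by name. Gene positions are from GENCODE on GRCm38, and promoters from RefSeq, whose motifs were searched once the ratios were known. Transcript length is the median over a gene's GENCODE transcripts. Alternatives added after seeing the data left out cells whose barcode is in both libraries, left out the cell with the most UMIs of a gene, and set ratios relative to genes of like transcript length. Clustering used scanpy 1.11.5, igraph 0.11.9 and scikit-learn 1.9.0, and the sums and intervals pandas 2.3.3, scipy 1.17.1 and numpy 2.4.6 in Python 3.11.15, with matplotlib 3.10.9 for plots.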

Additional observations from a re-analysis of the deposited data

Results flagged for a closer look

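The genes Ada, Sepp1 and Reg4 had ratios on opposite sides of 1 in different classes of cells, past their counting intervals. The differences were not tested. Ada, adenosine deaminase of villus enterocytes, had a ratio of 1.53 (1.254 to 1.88) in crypt-like cells, at 20.01 and 30.7 CPM, and of 0.53 (0.456 to 0.614) in enterocyte-like cells, at 59.4 and 31.5. Sepp1, which encodes selenoprotein P, had a ratio of 1.64 (1.42 to 1.9) in crypt-like cells, at 36.4 and 59.7, and of 0.773 (0.746 to 0.802) in enterocyte-like cells, at 746 and 577. Reg4, a lectin of secretory cells, had a ratio of 1.41 (1.16 to 1.73) in crypt-like and 2.13 (1.76 to 2.59) in enterocyte-like cells, and of 0.719 (0.693 to 0.746) in goblet-like cells, where it measured 1328 and 954 CPM. In each case the ratio above 1 was in the class where the gene was at its lower level.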

How the results depend on the processing

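No paired analysis was possible because each group had 1 library and the labels carry no replicate numbers. The 67 higher and 66 lower genes became 64 and 154 with no cell left out, 146 and 164 among genes with 100 or more UMIs, 38 and 24 with 1000 or more, 89 and 34 with the median ratio set to 1, 85 and 35 relative to genes of like transcript length, 198 and 450 with each cell thinned to 1000 UMIs, 245 and 684 at a lower fold limit, and 28 and 12 at 2-fold. Thinning leaves fewer UMIs per gene, and for the other changes the cause was not tested. With no cell left out, 50 of the 67 higher and 66 of the 66 lower genes remained. Under the other settings both counts stayed within 1.5 times, as did those inside classes at resolutions 0.5 and 2. The 313 named genes gave 5006 values, of which 1096 moved past their counting intervals. Changes of side were counted only for named genes past 1.5-fold, and there were 2. Cd3e went to 0.931 when thinned, and Clca4a to 1.07 when clusters of resolution 2 were weighted as in AOS 0. For the other named genes they were not counted. Medians of 41 lists gave 693 values, of which 56 moved by more. The depth of 21473238 UMIs in B + A 0 limits genes under 300 UMIs.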

Other observations

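Further genes past 1.5-fold lay outside the fixed lists and were picked after their values were seen. Class ratios are given for crypt-like, enterocyte-like and goblet-like cells, in this order. Id3, an inhibitor of helix-loop-helix factors and a target of BMP signals, measured 18.2 CPM in AOS 0, 40.4 in B + A 0, with 37.7 in B + A 10 (ratio 2.22, 2 to 2.47), with class ratios of 2.09, 2.11 and 2.26. Stmn1, which destabilizes microtubules, measured 71.8, 137 and 117 (ratio 1.91, 1.81 to 2.02), with 2.03, 2.35 and 1.6, the last 2 on fewer than 300 UMIs. With each cell thinned to 1000 UMIs, Stmn1 was detected in 15.9% of crypt-like cells of AOS 0 and 32.1% of B + A 0, and in 0.542% and 0.493% of enterocyte-like cells. It is a crypt marker that differed from the mitosis genes, all of which were below 1. Chordc1, a partner of Hsp90, measured 29.5, 48.8 and 59.99 (ratio 1.66, 1.52 to 1.81), and Dnajb4, an Hsp40 protein, 5.35, 8.15 and 8.24 (ratio 1.52, 1.23 to 1.89). The glycosyltransferases B3gnt3, B3galt5 and Fut4, which build surface sugars, had ratios of 1.64 (1.5 to 1.8), 1.86 (1.5 to 2.31) and 1.78 (1.42 to 2.22). Saa1, an acute phase protein made by ileal enterocytes, measured 58.1, 96.6 and 61.3 (ratio 1.66, 1.56 to 1.77).

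On the lower side, Areg, a growth factor that acts on the EGF receptor, measured 9.85, 5.73 and 10.7 (ratio 0.582, 0.469 to 0.718), and Edn2, an endothelin, 20.5, 12.8 and 13.2 (ratio 0.626, 0.542 to 0.722). Aacs, which activates acetoacetate for lipid synthesis, measured 24.5, 15 and 12.7 (ratio 0.614, 0.538 to 0.7). Cd55, which protects cells from complement, had a ratio of 0.603 (0.52 to 0.698), Prss8, a membrane protease that activates sodium channels, 0.616 (0.521 to 0.725), and Apol10a, an apolipoprotein L gene, 0.596 (0.572 to 0.621). The mitotic kinase Melk had a ratio of 0.628 (0.538 to 0.731) and the centromere protein Itgb3bp 0.579 (0.491 to 0.682).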
